A study of Mus musculus with 12 samples.

Results

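Transcripts of the interleukin 6 (IL6) cytokine family, its receptor chains and the STAT3 feedback loop were measured in MEFs, the primary fibroblasts that grow out of dissociated mouse embryos, here of day 13.5 and at passage 2. The set of 9 genes comprised the ligands Il6, Il11 and Lif, the receptor chains Il6st, Il11ra1, Lifr and Osmr, and the signalling genes Stat3 and Socs3. Members were the probe sets that the platform annotation gives to a single one of these genes, which found 18 of the 22626 probe sets that are no control. They cover 8 of the 9 genes, out of 12393 genes with such a probe set. No probe set was listed for Il11ra1 alone, so it was not analysed here. The 4 groups were untreated wildtype cells, untreated Rb null cells (Rb-/-, without the retinoblastoma gene Rb1), and wildtype and Rb null cells kept for 24 h in 16 µM cisplatin, a platinum drug that crosslinks DNA. The labels do not say which Rb1 allele was used or how many embryos gave the cells. Each group was measured on 3 Affymetrix arrays (12 in all), and the design describes 1 RNA sample per group hybridized 3 times. Each group is thus 1 RNA sample, n = 3 below counts its hybridizations, and the p-values measure only the technical spread between them.

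Cytokines of this family signal by bringing receptor chains together on the cell surface. IL6, IL11 and LIF all use gp130, the protein of Il6st, which for LIF pairs with the LIF receptor and for IL6 and IL11 with a ligand-specific chain. Janus kinases bound to these chains phosphorylate STAT3, which enters the nucleus and switches on target genes. One target is Socs3, whose product binds gp130 and shuts the signal off. Fibroblasts are known to secrete IL6, IL11 and LIF under stress, and IL6 is a well-known part of the secretory response to lasting DNA damage.

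Signals are MAS5 units, a linear intensity per probe set with every array scaled to the same mean, and are given as mean ± SD. Changes are log2 values, estimate ± standard error, of the limma fit to all 12 arrays after 10.4 was added to each signal, which understates the changes of weak probe sets. A probe set was called, and is said to have risen or fallen, where the p adjusted over 13575 tested probe sets (Benjamini-Hochberg) was under 0.05 and the change at least 1.5-fold. Of the 18 member probe sets 14 lay above the level filter, a signal of about 104.6. One Lif and all 3 Lifr probe sets lay under it and are given by value. Levels are compared within a probe set and not between genes.

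Arrays of a group were alike, with correlations of log2 signal from 0.981 to 0.992. The untreated wildtype arrays stood apart in sex-linked transcripts, with Xist at 132 ± 26.7 against group means of 2379 to 3443 elsewhere, and the Y-linked Eif2s3y at 478 ± 7.90 against means of 1.27 to 6.63. Genotype or drug cannot be told apart from a different embryo origin in the 3 comparisons that use that group, namely the genotype comparison without drug, the cisplatin response of wildtype cells and the difference of responses. The other 2 comparisons do not use it. They too compare 1 RNA sample per group, and the labels do not say which embryos gave each. A difference between embryos cannot be told apart from genotype or drug there either. Of the fibroblast markers 8 of 8 genes were above the level filter, against 0 of 4 epithelial and 1 of 5 endothelial genes (Kdr). Macrophage and leukocyte markers were above it for 11 of 12 genes, so transcripts typical of such cells were measured too. In such bulk RNA, fewer cells of a type and less RNA per cell cannot be told apart.

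The 3 ligand genes moved together in Rb null cells, and their promoters and that of Socs3 are shown for the known binding motifs in them. The sequences are the 250 bases before the transcription start in RefSeq (build GRCm38.p6), written 5′ to 3′ on the strand of the gene, with motif matches in capitals.
Il6, chr5:30012864-30013113, plus strand: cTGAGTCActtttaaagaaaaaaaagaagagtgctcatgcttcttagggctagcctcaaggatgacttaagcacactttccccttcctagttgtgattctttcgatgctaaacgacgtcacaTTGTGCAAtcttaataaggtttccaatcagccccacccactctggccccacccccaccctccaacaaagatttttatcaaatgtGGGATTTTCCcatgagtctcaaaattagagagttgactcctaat
Il11, chr7:4778142-4778391, minus strand: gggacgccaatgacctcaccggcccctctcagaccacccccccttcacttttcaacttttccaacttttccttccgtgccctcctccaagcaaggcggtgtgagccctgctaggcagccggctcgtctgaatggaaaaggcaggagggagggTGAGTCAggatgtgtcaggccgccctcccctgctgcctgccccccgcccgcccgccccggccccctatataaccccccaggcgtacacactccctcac
Lif, chr11:4257318-4257567, plus strand: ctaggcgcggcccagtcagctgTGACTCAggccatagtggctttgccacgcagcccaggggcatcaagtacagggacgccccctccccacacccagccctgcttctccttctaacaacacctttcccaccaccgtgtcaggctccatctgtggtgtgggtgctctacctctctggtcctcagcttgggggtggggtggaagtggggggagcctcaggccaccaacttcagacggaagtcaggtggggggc
Socs3, chr11:117969367-117969616, minus strand: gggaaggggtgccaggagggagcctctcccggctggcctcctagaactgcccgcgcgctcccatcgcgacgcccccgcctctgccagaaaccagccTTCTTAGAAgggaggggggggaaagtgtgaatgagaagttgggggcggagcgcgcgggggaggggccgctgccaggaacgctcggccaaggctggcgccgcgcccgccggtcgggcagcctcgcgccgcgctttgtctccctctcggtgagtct
The motifs searched were AP-1 (TGANTCA), CRE (TGACGTCA), kappa B, C/EBP (TTGCNNAA), STAT (TTCNNNGAA) and E2F (TTTNNCGC) on both strands, and the TATA box (TATAAA) on the gene's strand. AP-1, the dimer of FOS and JUN proteins, had a match in each of the printed ligand windows, starting 249 bases before the start in Il6, 98 in Il11 and 228 in Lif. A match to this motif was found in 6.7% of all 32851 promoter windows of the same length. The Il6 window also held a C/EBP match on the opposite strand, beginning 128 bases before the start (9.6% of all windows), and a kappa B match 44 bases before it (1.2%). The Socs3 window held a STAT match, TTCTTAGAA, 154 bases before the start (7.0% of all windows). No match overlapped another. The other 8 of the 12 windows of the 9 genes, among them an upstream start of Il11, held none of these letters. A match describes the letters and shows no binding.

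The ligand transcripts were lowest in untreated Rb null cells. After cisplatin Lif was higher in them than in wildtype cells, and Il6 and Il11 were not called between the genotypes. Cisplatin raised Il6 4.85-fold, Lif 6.63-fold and Il11 2.86-fold in Rb null cells. In wildtype cells it raised Il6 1.92-fold and Lif 1.66-fold, and Il11 was not called. The response was larger in Rb null cells for each of the 3 genes when the difference itself was tested. On untreated Rb null arrays Il6 (41.6 to 81.8) and Il11 (82.9 to 100.5) lay under the filter level of about 104.6. Both probe sets passed the filter through the other groups. Without detection calls such low values cannot be placed above or below background, so the changes measured from them are uncertain in size.

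Il6 encodes interleukin 6, the family's best known inflammatory cytokine. On untreated arrays its signal was 153.2, 164.1 and 137.7 in wildtype and 81.8, 41.6 and 57.4 in Rb null cells. After cisplatin it was 340.1, 288.0 and 273.9 in wildtype and 317.9, 322.9 and 329.2 in Rb null cells. The untreated groups did not overlap, each treated group lay above both of them, and the treated groups overlapped. Group means were 152 ± 13.3, 60.3 ± 20.3, 301 ± 34.9 and 323 ± 5.66 in the same order. Untreated Rb null cells were lower than wildtype by log2 -1.23 ± 0.18 (adjusted p = 7.9e-05). Cisplatin raised Il6 by 0.94 ± 0.18 in wildtype (adjusted p = 0.000398) and by 2.28 ± 0.18 in Rb null cells (adjusted p = 3.9e-08). The difference of these responses was 1.34 ± 0.25 (adjusted p = 0.000758). After cisplatin the genotypes differed by 0.11 (95% interval -0.27 to 0.48), which was not called.

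Il11 encodes interleukin 11, a fibroblast-derived relative of IL6 that acts on bone, platelet precursors and fibrosis. Its signal was 278.1, 287.9 and 317.7 in untreated wildtype and 91.7, 100.5 and 82.9 in untreated Rb null cells. With cisplatin the arrays read 271.9, 311.0 and 309.7 in wildtype and 273.5, 311.4 and 260.4 in Rb null cells. The 3 untreated Rb null arrays were low and apart from the other 9, which covered a common range. Il11 was lower in untreated Rb null cells by log2 -1.58 ± 0.12 (adjusted p = 9.95e-08) and rose there by 1.52 ± 0.12 with cisplatin (adjusted p = 3.82e-08). In wildtype cells the change with cisplatin was 0.014 (95% interval -0.24 to 0.26), and its sign turned under quantile normalization. After cisplatin the genotypes differed by -0.077 (95% interval -0.33 to 0.17), whose sign turned under quantile normalization too. The responses differed by 1.5 ± 0.17 (adjusted p = 9.03e-06).

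Lif encodes leukemia inhibitory factor, known for keeping mouse embryonic stem cells undifferentiated. On its stronger probe set the signal was 894.3, 792.9 and 647.2 in untreated wildtype and 208.8, 356.3 and 353.5 in untreated Rb null cells. Cisplatin-treated arrays gave 1383.6, 1298.7 and 1185.4 in wildtype and 1826.3, 2124.6 and 2168.8 in Rb null cells. None of the 4 groups overlapped, and Rb null cells held both the lowest and the highest level. Lif was lower in untreated Rb null cells by log2 -1.34 ± 0.17 (adjusted p = 2.49e-05) and higher in them after cisplatin by 0.66 ± 0.17 (adjusted p = 0.00497). It rose by 0.73 ± 0.17 in wildtype (adjusted p = 0.00213) and by 2.73 ± 0.17 in Rb null cells (adjusted p = 3.71e-09), and the responses differed by 2.00 ± 0.24 (adjusted p = 1.92e-05). The weaker Lif probe set, under the level filter, had group means in the same order, from 41.5 ± 20.1 in untreated to 223 ± 27.9 in cisplatin-treated Rb null cells, with wildtype at 84.7 ± 23.0 and 129 ± 32.2. In the fit without a level filter its difference of responses was 1.69 ± 0.42 (adjusted p = 0.0107).

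**Figure D1:**
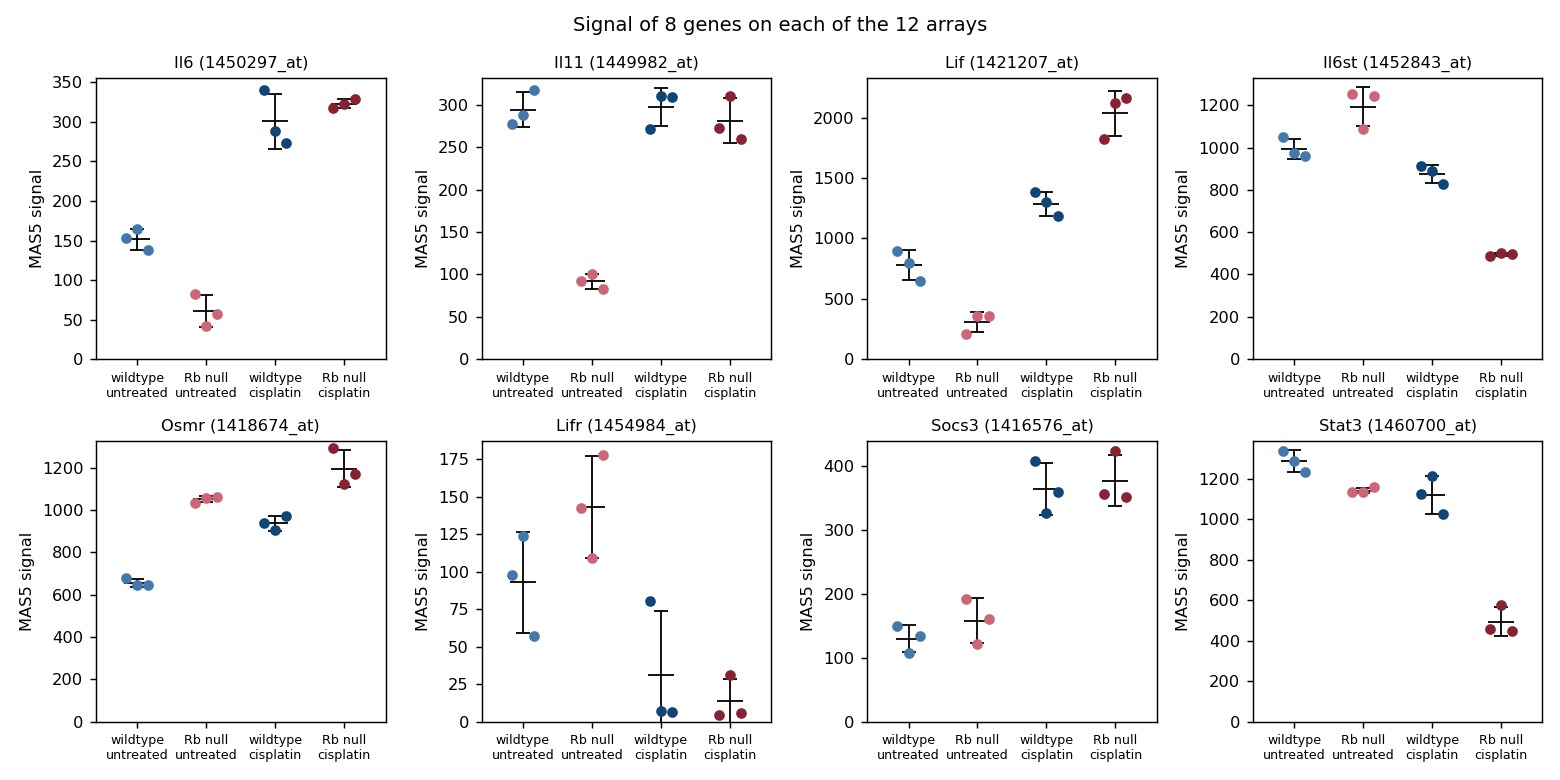
MAS5 signal (vertical axis, linear from 0) of 1 probe set for each of 8 genes, by group. Points are the 3 arrays of a group, bars the mean ± SD, with the lower bar of Lifr cut at 0. Il6, Il11 and Lif are lowest in untreated Rb null cells, while Il6st (494.7 on average) and Stat3 (494.1) are lowest in cisplatin-treated Rb null cells and Socs3 is higher in both treated groups.

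Among the receptor genes only Il6st was called with cisplatin above the level filter. It encodes gp130, the chain that IL6, IL11 and LIF share, and was measured by 3 probe sets. On the brightest its signal was 1049.3, 975.0 and 960.8 in untreated wildtype and 1251.0, 1086.0 and 1243.7 in untreated Rb null cells. Treated arrays gave 911.1, 887.1 and 825.7 in wildtype and 487.3, 500.2 and 496.5 in Rb null cells. Cisplatin-treated Rb null cells had the lowest level, with no overlap with any other group, and untreated Rb null cells had the highest.

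Il6st fell with cisplatin in Rb null cells on all 3 probe sets, by log2 -1.25 ± 0.077 (adjusted p = 3.34e-09), -1.32 ± 0.11 (6.31e-08) and -1.49 ± 0.11 (1.44e-08). In wildtype cells it was not called on any of them, with values from -0.23 to -0.18 and adjusted p from 0.0561 to 0.143. The responses differed on each, by -1.07 ± 0.11 (adjusted p = 4.35e-06), -1.13 ± 0.15 (5.01e-05) and -1.26 ± 0.15 (1.67e-05). After cisplatin Il6st was lower in Rb null than in wildtype cells on each, by -0.81 ± 0.077 (adjusted p = 1.08e-06), -0.85 ± 0.11 (1.56e-05) and -0.64 ± 0.11 (0.000157). The last of these, on probe set 1421239_at, fell short of 1.5-fold at -0.54 under quantile normalization and at -0.57 with each array centred on its median, and with a pseudocount at the 25th percentile (-0.55). Without drug only this same probe set was called, as higher in Rb null cells by 0.62 ± 0.11 (adjusted p = 0.000373). That call ended with median centring (0.58), that larger pseudocount (0.57) and without the untreated wildtype array 3 (0.54), and the other 2 probe sets had 0.26 and 0.28.

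Osmr encodes the oncostatin M receptor chain, a partner of gp130, and was called in 1 comparison, between the untreated genotypes. On its brighter probe set the signal was 678.5, 646.3 and 645.6 in untreated wildtype and 1035.4, 1057.3 and 1061.3 in untreated Rb null cells. After the drug it was 937.2, 903.5 and 973.7 in wildtype and 1292.9, 1125.2 and 1169.7 in Rb null cells. The 4 groups did not overlap. Untreated Rb null cells were higher by log2 0.67 ± 0.071 (adjusted p = 4.34e-06), which was called. The other comparisons of this probe set had values under the 1.5-fold minimum: 0.51 ± 0.071 with cisplatin in wildtype cells (adjusted p = 2.75e-05), 0.18 ± 0.071 in Rb null cells (0.0357), 0.35 ± 0.071 between genotypes after cisplatin (0.000975) and -0.33 ± 0.10 for the difference of responses (0.0195). The second Osmr probe set had 0.56 ± 0.12 between untreated genotypes (adjusted p = 0.00257), just below the fold minimum and past it without the untreated array 3 of either genotype (0.61 each), and 0.0068 with cisplatin in Rb null cells (95% interval -0.25 to 0.27).

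Lifr encodes the LIF receptor chain and was weak on all 3 probe sets, with group means of at most 143. On the strongest, 1454984_at, the signal was 97.6, 123.9 and 57.1 in untreated wildtype and 142.5, 109.3 and 177.5 in untreated Rb null cells. With the drug it read 80.7, 6.9 and 6.4 in wildtype and 4.5, 30.9 and 5.6 in Rb null cells. The Rb null groups did not overlap, and the wildtype groups did through 1 treated array. Without detection calls, values this low cannot be placed above or below background. In the fit without a level filter this probe set had log2 -2.82 ± 0.59 with cisplatin in Rb null cells (adjusted p = 0.00137) and -1.74 ± 0.59 in wildtype cells (adjusted p = 0.033). The responses differed by -1.08 (95% interval -2.87 to 0.71), which was not called. The other 2 Lifr probe sets had group means of 15.3 to 51.9 and were not called in any comparison of that fit.

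Stat3 encodes the transcription factor activated through gp130, and on its 2 bright probe sets it was lowest in cisplatin-treated Rb null cells. On probe set 1460700_at the signal was 1339.4, 1288.9 and 1233.4 in untreated wildtype and 1134.0, 1133.3 and 1157.1 in untreated Rb null cells. Arrays of treated cells gave 1125.2, 1214.4 and 1025.3 in wildtype and 455.8, 576.1 and 450.4 in Rb null cells. The 3 treated Rb null arrays lay far below the other 9. Stat3 fell with cisplatin in Rb null cells by log2 -1.20 ± 0.095 (adjusted p = 4.8e-08) on this probe set and by -1.17 ± 0.12 (6.56e-07) on 1426587_a_at. In wildtype cells the values were -0.20 (95% interval -0.40 to 0.0031) and -0.24 (-0.49 to 0.016), neither of which was called.

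The Stat3 responses differed by -1.0 ± 0.13 (adjusted p = 4.96e-05) and -0.93 ± 0.17 (0.000551). After cisplatin Rb null cells were lower by -1.17 ± 0.095 (adjusted p = 2.17e-07) and -1.13 ± 0.12 (2.51e-06). Without drug the genotypes differed by -0.17 and -0.20, and neither was called. The weak probe set 1424272_at went against this: its group means were 103 to 129, the groups overlapped, and it was called in none of the 5 comparisons. Which transcripts the 3 Stat3 probe sets detect is not given in the sources used here.

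Socs3, the feedback inhibitor, rose with cisplatin in both genotypes on each of its 3 probe sets. On probe set 1416576_at the signal was 148.8, 107.8 and 133.4 in untreated wildtype and 191.6, 121.7 and 160.9 in untreated Rb null cells. In treated cells it was 407.0, 325.9 and 358.6 in wildtype and 356.5, 422.6 and 351.4 in Rb null cells. Treated arrays lay above all untreated arrays, and the genotypes overlapped within each treatment. On this probe set Socs3 rose by log2 1.42 ± 0.16 in wildtype (adjusted p = 3.58e-06) and by 1.22 ± 0.16 in Rb null cells (adjusted p = 1.15e-05). The other 2, of a kind that can cross-hybridize, rose by 1.99 ± 0.19 and 1.12 ± 0.16 in wildtype and by 1.71 ± 0.19 and 0.72 ± 0.16 in Rb null cells. The smallest of these, 0.72, fell short of 1.5-fold at 0.58 without the cisplatin-treated Rb null array a. The largest, 1.99 on 1455899_x_at, started from an untreated wildtype mean of 102.5 ± 26.3, near the filter level of about 104.6. Changes of this probe set measured from that group are uncertain in size.

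The Socs3 responses were not called as different, by -0.20 (95% interval -0.69 to 0.29), -0.28 (-0.84 to 0.28) and -0.40 (-0.87 to 0.076), intervals that do not show equal responses. Between genotypes 1 of 6 Socs3 values was called, 0.63 ± 0.19 for 1455899_x_at without drug (adjusted p = 0.0175). That call ended with the larger pseudocount (0.49), without the untreated Rb null array 1 (0.51) and without the untreated wildtype array 3 (0.43). With its 95% intervals, the plot of changes shows the Socs3 rises in both genotypes.

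**Figure D2:**
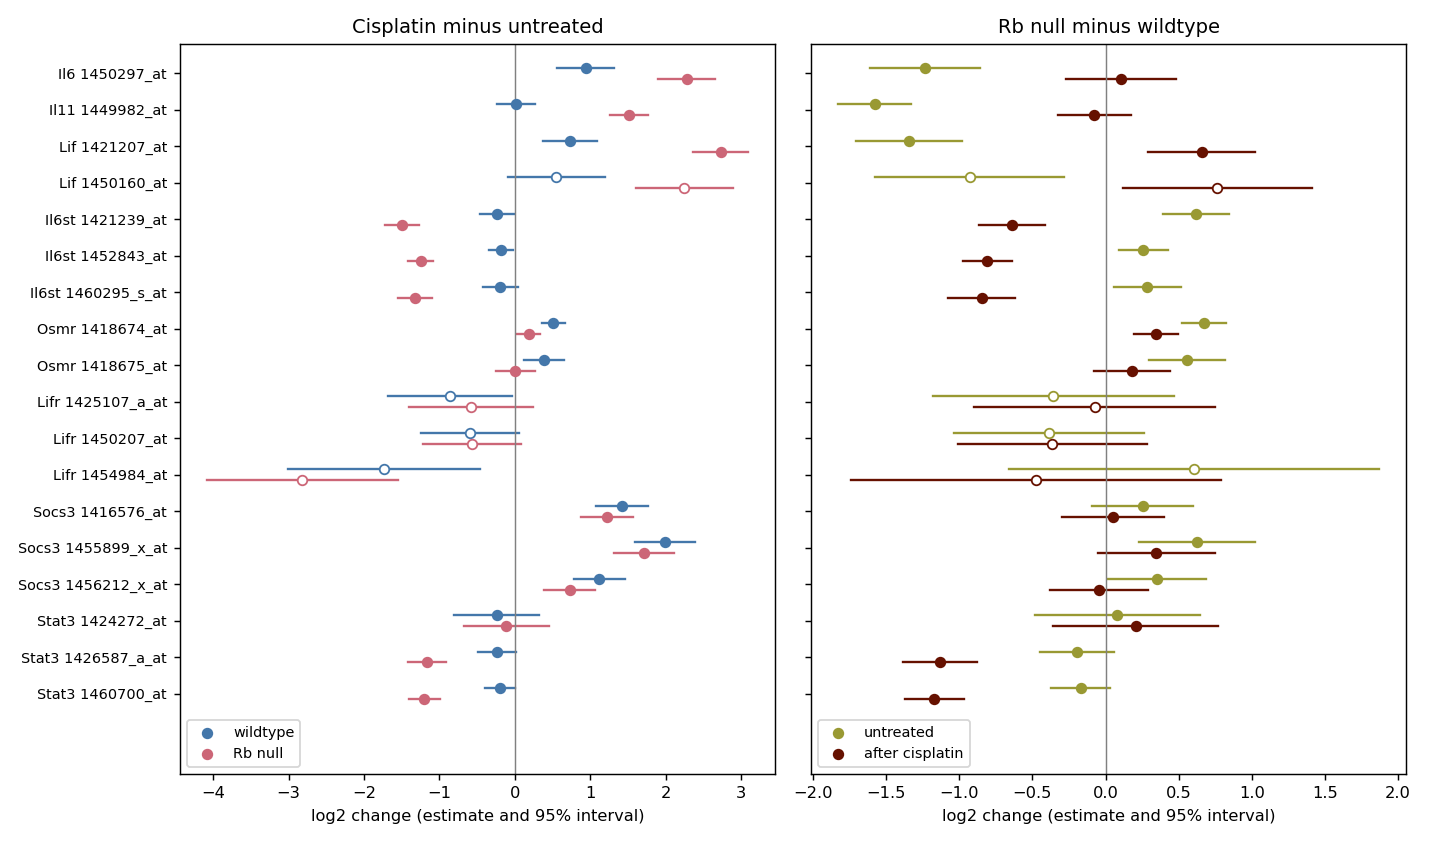
log2 change (horizontal axis) of all 18 member probe sets, with 95% intervals of the limma fit, for cisplatin minus untreated (left) and Rb null minus wildtype (right). Open points are the 4 probe sets under the level filter, from the fit without it. On the left the Rb null values of Il6, Il11 and Lif lie to the right of the wildtype ones and those of Il6st and 2 Stat3 probe sets to the left, while Socs3 lies right of 0 in both.

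Counted over the 14 tested member probe sets, several of which share a gene, 3 were called as higher and 3 as lower in untreated Rb null cells, where 7.68% and 4.69% of all tested probe sets were called. After cisplatin 1 was higher (Lif) and 5 were lower (all 3 of Il6st and 2 of Stat3), beside 9.21% and 12.9% of all. Cisplatin raised 5 and lowered 0 in wildtype cells, beside 13.5% and 13.2% of all. The 5 were Il6, Lif and the 3 Socs3 probe sets. At an adjusted p under 0.05 with no fold minimum, 7 were called in that comparison, the added 2 being those of Osmr. Of all 13575 tested probe sets 7413 were called in this way, so the 7 of 14 did not stand out. In Rb null cells cisplatin raised 6 (Il6, Il11, Lif and Socs3) and lowered 5 (Il6st and Stat3), beside 15.8% and 20.9% of all. The responses differed for 8 of the 14, 3 with a higher and 5 with a lower value in Rb null cells, beside 8.64% and 14.4% of all. The median change of the 14 in Rb null cells was log2 0.094, since rises and falls offset each other, against -0.023 over all tested probe sets. With 1 probe set for each of the 7 tested genes the median was 1.22 there, and -0.17 in place of 0.26 between the untreated genotypes. Centring each array on its median moved all cisplatin changes of Rb null cells by 0.15 and all differences of responses by 0.10. The share of all calls that were higher then went from 41.6% to 51.6% between treated genotypes, from 43% to 56.3% for cisplatin in Rb null cells and from 37.5% to 51.6% for the difference. Counts after cisplatin and for the response of Rb null cells were the same, 6 and 11, in a fit without the untreated wildtype group. Those comparisons do not use that group, so leaving it out could change only the pooled spread and not the estimates.

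Other genes of the pathway were read from lists of known members, with 1 probe set per gene and 7945 genes tested. The lists were chosen with earlier results of these data known. Their counts and medians beside those of all genes are therefore description only. Of 7 other ligands 2 passed the level filter and of 5 other receptor chains 2 did. The ligand gene Clcf1, cardiotrophin-like cytokine, was lower in Rb null cells after cisplatin by log2 -0.64 ± 0.11 (adjusted p = 0.000185). The call ended at -0.54 without the treated Rb null array a. Cntfr, the receptor chain for ciliary neurotrophic factor, had a difference of responses of 0.75 ± 0.23 (adjusted p = 0.018) and was called in no other comparison.

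Janus kinases, other STATs, adaptors and inhibitors had 15 of 17 genes tested. In untreated cells 1 was higher in Rb null cells and 0 were lower, beside 8.07% and 5.08% of all genes. It was Ptpn2, a phosphatase that acts on Janus kinases and STATs, at 344.5, 911.5 and 849.6 on the wildtype and 1084.5, 1207.0 and 1063.2 on the Rb null arrays. Its change of log2 0.78 ± 0.25 (adjusted p = 0.0282) became 0.34 without the low wildtype array 1, which ended the call. The call also ended without any 1 of the 3 untreated Rb null arrays (adjusted p = 0.0548, 0.0821 and 0.0537). After cisplatin 1 was higher and 4 were lower, beside 9.67% and 13.3% of all genes. Jak1, the kinase most used by gp130, had a mean of 1596 ± 27.0 in wildtype against 886 ± 35.9 in Rb null cells, a change of -0.84 ± 0.068 (adjusted p = 2.24e-07). The adaptor gene Gab1 (-1.01 ± 0.11), Stat5a (-0.63 ± 0.16) and Pias1, an inhibitor of STATs (-0.59 ± 0.094), were lower too. Cish, a relative of Socs3 best known as a target of STAT5, was higher by 0.78 ± 0.10. Without the treated Rb null array c the calls of Stat5a (-0.58) and Pias1 (-0.53) ended, as they did without the treated wildtype array b (-0.56 for each) and that of Pias1 without the treated wildtype array a (-0.57).

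With cisplatin 4 of these 15 genes rose and 1 fell in wildtype cells, beside 14.8% and 12.7% of all genes. Ptpn2 (1.21 ± 0.25), Stat5a (0.94 ± 0.16), Cish (0.66 ± 0.10) and Pias3, an inhibitor of STAT3 (0.62 ± 0.16), rose, and Socs2 fell (-0.60 ± 0.11). The Ptpn2 rise was 0.77 without the low untreated wildtype array 1. Without the untreated array 1 the calls of Cish (0.58) and Pias3 (0.57) ended, and without the untreated array 2 those of Pias3 (0.54) and Socs2 (-0.57). That of Socs2 also ended without the treated array b (-0.52). In Rb null cells 3 rose and 2 fell, beside 16.6% and 20.3% of all genes. Cish rose by 1.57 ± 0.10, Pias3 by 0.80 ± 0.16 and Ptpn2 by 0.68 ± 0.25 (adjusted p 0.0643 to 0.0918 without 1 of 4 arrays). Jak1 fell by -1.02 ± 0.068 and Stat5b by -1.01 ± 0.10. On the other tested Pias3 probe set, Rb null means were 410 ± 33.9 untreated and 448 ± 44.8 treated, and the arrays overlapped. Wildtype means of that probe set were 259.5 ± 32.1 and 361.5 ± 16.5, without overlap. Another tested Ptpn2 probe set had means of 326 ± 14.5 in untreated and 590 ± 40.9 in treated wildtype cells. In Rb null cells its means were 400 ± 22.6 and 889 ± 18.0, and treated arrays lay above untreated ones in both genotypes. On a weaker tested Ptpn2 probe set, treated and untreated arrays overlapped in both genotypes. The responses differed for 6 of the 15, with 1 higher and 5 lower in Rb null cells, beside 8.70% and 15.0% of all genes. Jak1 was among the lower ones (-0.75 ± 0.097, adjusted p = 3.81e-05), as were Il6st and Stat3 above, and the higher one was Cish (0.91 ± 0.15, adjusted p = 0.000258). The calls of Gab1 (-0.63) and Stat5b (-0.61) ended without the untreated wildtype array 2 (-0.50) and the untreated Rb null array 1 (-0.54), respectively, and without 1 of several other arrays.

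Of 22 genes known to be induced through STAT3, 17 were tested. Many are also targets of other stress pathways, so their level is no direct reading of STAT3. Bcl3, Serpina3n, Lcn2, Hp and Lbp lay under the level filter and were not tested. Serpina3n read 129.4 to 160.0 on untreated Rb null and 11.2 to 52.2 on untreated wildtype arrays. After cisplatin it read 324.4 to 355.7 in Rb null and 5.7 to 21.8 in wildtype cells. The other untested genes had group means of at most 67.9. With cisplatin 8 of the 17 rose and 1 fell in wildtype cells, beside 14.8% and 12.7% of all genes. The median log2 change was 0.58 over the 17 against 0.0565 over all genes. In Rb null cells 9 rose and 2 fell, beside 16.6% and 20.3% of all genes, with a median of 0.77 against -0.017. The adhesion gene Icam1 rose by 3.06 ± 0.12 and 3.13 ± 0.12 in the 2 genotypes, and the AP-1 gene Fos by 2.82 ± 0.12 and 3.65 ± 0.12. The transcription factor gene Klf4 rose by 2.03 ± 0.13 and 1.42 ± 0.13, wildtype first. The AP-1 gene Junb rose by 1.53 ± 0.091 and 2.31 ± 0.091 in that order. Saa3, an acute phase gene, fell by -1.78 ± 0.17 and -1.84 ± 0.17. On untreated wildtype arrays Icam1 (76.8 to 103.0) lay under the filter level of about 104.6. So did Saa3 on all treated arrays (44.6 to 85.1). Changes from or to such low values are uncertain in size.

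Between genotypes 1 of these 17 genes was higher and 0 were lower without drug, beside 8.07% and 5.08% of all genes. It was Klf4, at 1.23 ± 0.13 (adjusted p = 4.52e-06). After cisplatin 5 were higher in Rb null cells and 2 were lower, beside 9.67% and 13.3% of all genes, so the lower calls were near the share of all genes. The higher ones included Junb and Icam1, whose calls ended, at 0.56 to 0.58, without the treated Rb null array b or the treated wildtype array c. The kinase gene Pim1 had a mean of 493 ± 22.9 in wildtype against 1073 ± 313 in Rb null cells, a change of 1.06 ± 0.17 (adjusted p = 0.000126), and Fos was higher by 0.83 ± 0.12. The survival gene Bcl2l1 (-0.96 ± 0.10, adjusted p = 3.76e-06) and Cebpd, a factor of the acute phase response (-0.77 ± 0.13), were lower. The responses differed for 8 of the 17, 4 in each direction, beside 8.70% higher and 15.0% lower of all genes. Of the 8 calls 3 (Klf4, Ccl2 and Ccnd1) ended without 1 array.

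**Figure D3:**
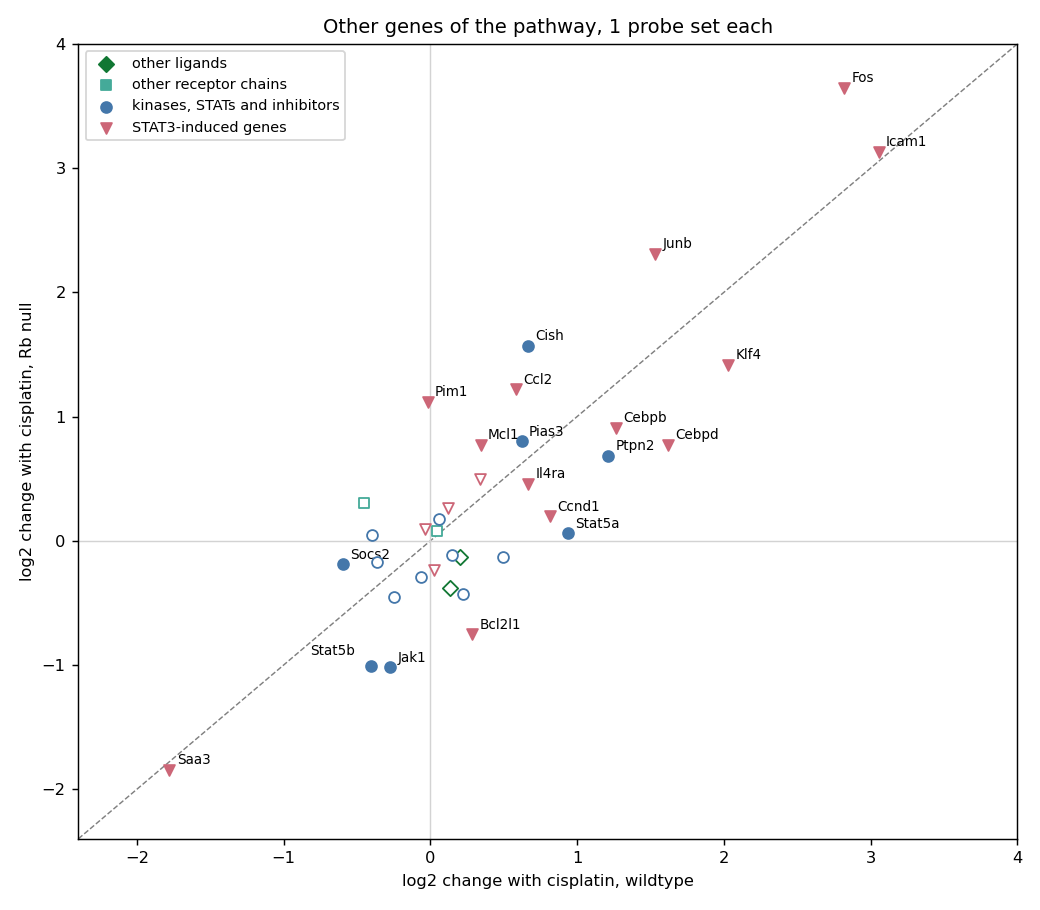
log2 change with cisplatin in wildtype (horizontal axis) and Rb null cells (vertical axis) of 36 other genes of the pathway, 1 probe set each. Filled symbols with names were called in at least 1 of the 2 comparisons, and the dashed line marks equal change. Fos and Icam1 are at the top right, and Jak1 and Stat5b lie low on the vertical axis only.

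The genes whose log2 signal followed each ligand most closely over the 12 arrays were taken from 7944 other genes as a description. The 12 arrays share 4 RNA samples, so a high correlation reflects 4 group levels. For Il6 they were Ggct (r = 0.985), the chemokine gene Ccl2 (0.984), the class II antigen gene H2-DMa (0.983), the kinase gene Stk25 (0.98) and the cell death gene Pmaip1 (0.975). Ccl2 had group means of 498, 344, 753 and 813 in untreated wildtype, untreated Rb null, treated wildtype and treated Rb null cells, the order that Il6 had. For Il11 they were Rnf19b, Fam210b, Fabp3, Cd151 and Atp6v1f (r from 0.968 to 0.973). For Lif they were Zfp954, the ubiquitin-conjugating enzyme gene Ube2b, the necroptosis kinase gene Ripk3, the MAP kinase phosphatase gene Dusp6 and the haem oxygenase gene Hmox1 (r from 0.979 to 0.987).

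Markers of cell types moved with the groups as well. The summed signal of the 8 fibroblast genes was 35401 to 36998 on untreated wildtype, 33439 to 34378 on untreated Rb null, 27266 to 28835 on treated wildtype and 19665 to 20971 on treated Rb null arrays. Such sums weigh the brightest genes most. With cisplatin in wildtype cells 2 of the 8 rose (Pdgfra and Dcn) and 3 fell, beside 14.8% and 12.7% of all genes. After cisplatin 6 of the 8 were lower in Rb null cells and 0 higher, beside 13.3% and 9.67% of all genes, in the same comparison in which Il6st, Stat3 and Jak1 were lower. The summed signal of the 12 macrophage and leukocyte genes was 4657 to 4954, 6438 to 6705, 10163 to 10777 and 4965 to 5207 in the same order. The sum of these 12 was highest on treated wildtype arrays, where Lyz2 weighed most (means of 1124, 2207, 4174 and 1087 in that order). Of the 11 tested 8 were lower and 0 higher in treated Rb null than in treated wildtype cells, beside 13.3% and 9.67% of all genes. With cisplatin in Rb null cells 8 fell and 2 rose (Cd68 and Cd14), beside 20.3% and 16.6% of all genes. With cisplatin in wildtype cells 5 of the 11 rose and 0 fell, beside 14.8% and 12.7% of all genes. Their median change there was log2 0.55, in the comparison in which Il6 rose by 0.94. Between the treated genotypes Il6 differed by 0.11, which was not called, and these markers had a median of -1.22. Kdr apart, the endothelial and all epithelial genes lay under the level filter. Over the 12 arrays the sum of all 5 endothelial genes, Kdr included, was 256 to 606. That of the 4 epithelial genes was 105 to 251. The part of these cell types in the results was not tested.

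**Figure D4:**
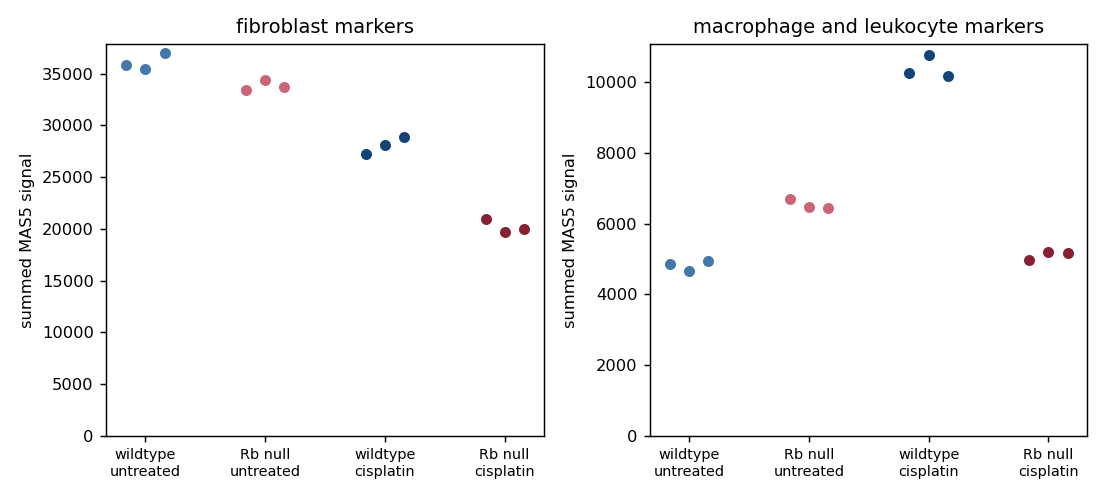
Summed MAS5 signal (vertical axis, linear from 0) of 8 fibroblast genes (left) and 12 macrophage and leukocyte genes (right), probe sets of a gene averaged first. Each point is 1 array. The fibroblast sum is lowest on treated Rb null arrays (19665 to 20971) and the macrophage sum is highest on treated wildtype arrays (10163 to 10777).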

How the data were processed

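Values were MAS5 signal intensities per probe set, linear and never negative, as deposited by the authors. MAS5 is named in the submitters' processing notes, and its version, scaling target and detection calls are not given in the sources used here. The mean of each array, trimmed by 2% at each end, was 500.1 or 500.2, so arrays were used as scaled. The log2 scale was used with 10.4, the 10th percentile of the values, added to each signal. Of 22690 probe sets 64 controls were left out, then the 40% with the lowest mean, which left 13575. Symbols came from the platform annotation, updated through RefSeq gene IDs; 691 probe sets with several symbols and 1555 without an entry were not named. One linear model with a term for each of the 4 groups was fitted (limma 3.58.1, lmFit and eBayes with a trend, R 4.3.3), with 8 residual and 6.09 prior degrees of freedom. Tests were two-sided, with Benjamini-Hochberg adjustment over all tested probe sets of a comparison. With 3 against 3 arrays an exact permutation test cannot go below p = 0.1. Results by gene used 1 probe set, without cross-hybridizing types where possible, then the brightest. The fit was tested on simulated data. Members and gene lists were chosen with earlier results of these data known. Named were all member probe sets, and of each list up to 4 called genes with the largest change per comparison, or all where 5 or fewer were called, and the 5 genes most like each ligand. Alternatives were other pseudocounts, filters, scalings and fold minimums, no trend, fewer groups, a replicate block and leaving out each array; for list genes the last was chosen after seeing the data.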

Additional observations from a re-analysis of the deposited data

Results flagged for a closer look

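The cisplatin responses of the 2 genotypes differed, by limma's test of the difference, for the members below and for genes of the pathway lists. Values are the Rb null response minus the wildtype response in log2. All use the untreated wildtype arrays, which stood apart in sex-linked transcripts.

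The ligand genes had larger rises in Rb null cells: Lif by 2.00 (adjusted p = 1.92e-05), Il11 by 1.5 (9.03e-06) and Il6 by 1.34 (0.000758). The receptor gene Il6st had lower values on its 3 probe sets, -1.26 (1.67e-05), -1.07 (4.35e-06) and -1.13 (5.01e-05), and Stat3 on 2 of 3, -1.0 (4.96e-05) and -0.93 (0.000551).

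Among kinases, STATs and inhibitors, Cish had 0.91 (adjusted p = 0.000258), Stat5a -0.88 (0.00601), Jak1 -0.75 (3.81e-05) and Pias1 -0.65 (0.00148). The receptor chain gene Cntfr had 0.75 (0.018). Among genes induced through STAT3, Pim1 had 1.14 (0.00197), Bcl2l1 -1.04 (8.26e-05), Cebpd -0.84 (0.00251) and Fos 0.83 (0.00187). These list values are of 1 probe set per gene. Another tested probe set of Bcl2l1, of Cebpd and of Pias1 overlapped between the treated genotypes.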

How the results depend on the processing

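Of 1566 values of single member probe sets under the alternatives, 1514 kept their direction and their side of the threshold, 21 lost a call, 9 gained one and 22 changed sign. Many of these alternatives could not move the estimate, such as another fold minimum or leaving out an array of a group not compared. The tally is therefore no measure of stability. With the lowest 60% of probe sets left out, which tests fewer, member calls went from 6 to 3 in the untreated genotype comparison, from 5 to 1 for cisplatin in wildtype and from 11 to 6 for cisplatin in Rb null cells. With a fold minimum of 2 they went from 6 to 3 and from 6 to 2 in the genotype comparisons without and with drug, and from 5 to 3 for cisplatin in wildtype cells. Calls over all probe sets, 1678, 3002, 3626, 4982 and 3132 in the 5 comparisons, were 1078, 1906, 2297, 3257 and 2021 with that filter, 4598, 6968, 7413, 8756 and 5109 with no fold minimum, and 598, 928, 1581, 2352 and 1191 with a minimum of 2.

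The sign changes were of values that were not called, and the cause was not tested. Il11 became 0.021 between treated genotypes and -0.0062 for cisplatin in wildtype under quantile normalization. Socs3 1456212_x_at became 0.046 (quantile) and 0.021 (centring) between treated genotypes, and Stat3 1424272_at 0.012 and 0.031 for cisplatin in Rb null cells. With arrays left out in turn, Stat3 1424272_at ranged from -0.026 to 0.20 and from -0.11 to 0.51 between genotypes without and with drug, from -0.43 to 0.19 for cisplatin in Rb null cells and from -0.19 to 0.43 for the difference. Socs3 ranged from -0.033 to 0.13 (1416576_at) and from -0.19 to 0.043 (1456212_x_at) between treated genotypes, Il11 from -0.025 to 0.075 for cisplatin in wildtype and Osmr 1418675_at from -0.076 to 0.072 for cisplatin in Rb null cells.

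A replicate block, the hybridization number or letter within a treatment, left the member calls at 6, 6 and 8 in the comparisons it could be fitted to. Same-numbered arrays did not all deviate together (correlations of -0.19 to 0.11), so the numbers were not taken as pairs.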
